A study of Homo sapiens with 33 samples.

Results

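CCDC26, MYC and PVT1 are neighbours at chromosome band 8q24 and were examined here by name, as 3 members, in the RNA of K562 cells. Of the 900 EZH2-bound RNA fragments for which reads were counted, 23 lay in these genes, with 22 in CCDC26, 1 in PVT1 and 0 in MYC. Fragments were assigned to a gene by a minimum of 50% of their bases inside its GENCODE 44 span on GRCh38. The genes were chosen from earlier results of the same libraries, in which CCDC26 stood out by its number of listed fragments, so that number and the presence of the genes in the FPKM table are descriptions and were not tested.

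K562 is a human leukemia cell line of erythroid character, and the libraries used here came from wild type cells that carried no knockout or knockdown. EZH2 is the methyltransferase of Polycomb Repressive Complex 2 (PRC2), and RNA bound to it had been pulled down by RNA immunoprecipitation (RIP). Input RNA of the RIP, which per the study's methods was done on nuclear lysates of fixed cells, was sequenced once, giving an FPKM (mapped fragments scaled by gene length and library size) for each gene. Cytoplasmic RNA, nuclear RNA, nuclear RNA with a poly(A) tail (polyA+) and nuclear RNA without it (polyA−) were each sequenced once, giving read counts on the listed fragments. With 1 library per fraction there was no replicate, so intervals (95%, exact Clopper-Pearson) cover counting error only and each test compares 2 libraries and not 2 conditions.

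MYC is a basic helix-loop-helix leucine zipper transcription factor that pairs with MAX and drives growth and ribosome production. PVT1 is a long non-coding RNA (lncRNA) gene just downstream of MYC, in the same direction, and it hosts the microRNAs MIR1204 to MIR1208. CCDC26 is an lncRNA gene farther downstream on the opposite strand, known from leukemia, where the region is often gained in copy number, and linked in leukemia cells to the receptor tyrosine kinase KIT. Long introns of such genes are transcribed into nascent RNA, which is nuclear and carries no poly(A) tail until the transcript is cleaved.

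All 3 members had an FPKM above 0 in the input RNA, but the lower bound of PVT1 was 0. MYC had 56.2 FPKM (bounds in the file 52.6 to 59.9), CCDC26 had 30.2 (27.2 to 33.2) and PVT1 had 14.4 (0 to 29.6). An FPKM of at least 1 was reached by 3 of 3 members and by 21.8% of the 58293 entries of the table. MYC lay above CCDC26 by 1.86-fold, and their bounds did not overlap. CCDC26 had 2.09 times the FPKM of PVT1, but the bounds of PVT1 reached from 0 to above the lower bound of CCDC26, so the order of these neighbours was not resolved. Among all entries, 99.0% were lower than MYC, 97.8% lower than CCDC26 and 94.7% lower than PVT1. Of the 14238 entries annotated as lncRNA genes, whose median was 0.0376 FPKM, 27 were higher than CCDC26 and 70 were higher than PVT1.

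The genes around the members were, as a group, near the level of the whole table. Of 24 neighbours at 8q24, 6 (25%) reached an FPKM of 1, where 21.8% of all entries did, and the median was 0.0842 against 0.0680. Listed at 0 were 8 (33.3%), against 41.8% of all entries, among them MIR1204 to MIR1208 inside PVT1. Per the study's methods, RIP-seq libraries were selected for size, so a 0 at these short RNAs may not measure their expression. The shares and the median of the neighbours include them. CYRIB, a regulator of the actin cytoskeleton on the far side of CCDC26, had 27.5 FPKM (23.9 to 31.1) and overlapped CCDC26 in its bounds. ASAP1, which acts on ARF GTPases, had 7.69 FPKM (5.59 to 9.79), and EFR3A, which anchors a lipid kinase at the plasma membrane, had 7.11 FPKM (5.88 to 8.35). Upstream of MYC, the lower bounds of several lncRNA genes were 0, with 0.0897 FPKM for CCAT1 (0 to 0.193), 0.0322 for PCAT1 (0 to 0.221) and 0.388 for CASC11 (0 to 0.831), which borders MYC. LINC00977, an lncRNA gene of the same band, had 1.51 FPKM (0.917 to 2.11).

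**Figure D1:**
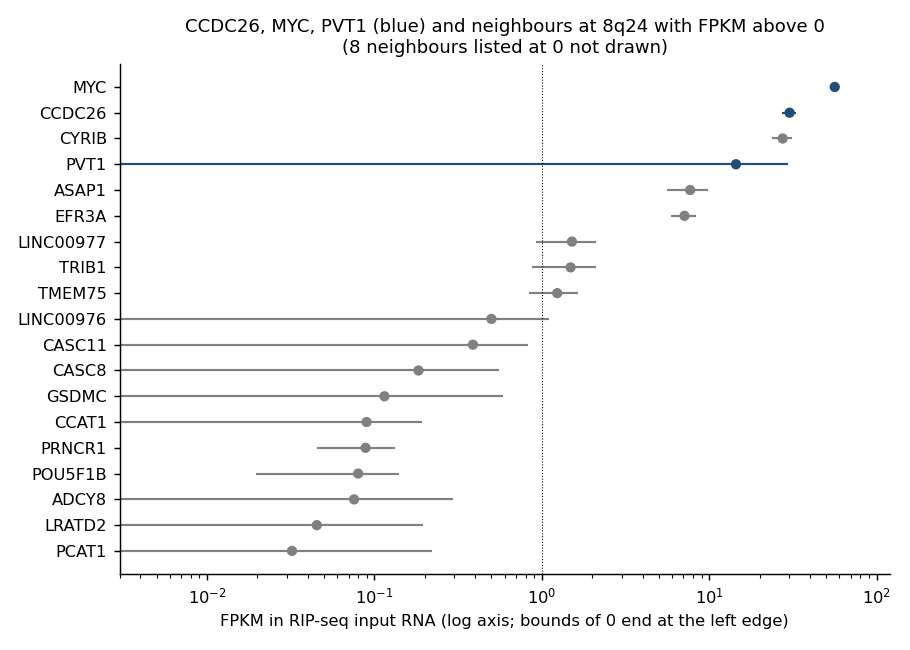
Points give the FPKM in the input RNA (1 library, log axis) of CCDC26, MYC and PVT1 (blue) and of the neighbours at 8q24 that were above 0 (grey), and lines the confidence bounds in the file. MYC at 56.2 and CCDC26 at 30.2 had narrow bounds, whereas those of PVT1 ran from 0 to 29.6.

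Most of the listed genes that act with MYC were present beside it. Of 11 partners and antagonists, 10 had an FPKM of at least 1, where 21.8% of all entries did, with a median of 4.44. MAX, the obligate partner, had 12.8 FPKM (10.6 to 15.1), and MGA, a MAX-binding antagonist, had 29.1 (26.1 to 32.1). The paralog MYCN had 0.0383 FPKM (0 to 0.158) and the paralog MYCL 1.74 (1.13 to 2.34), both below MYC with bounds that did not overlap. Of 14 textbook target genes, 13 had an FPKM of at least 1, with a median of 46.3, and 6 were higher than MYC. The nucleolar proteins NPM1 and NCL had 389 and 261 FPKM, ODC1 of polyamine synthesis had 80.6, and TERT, the catalytic subunit of telomerase, had 0.721 (0 to 1.48). KIT, the gene linked to CCDC26, had 0.301 FPKM (0 to 0.783). An FPKM of 1 was reached by 13 of 13 listed erythroid genes, against 21.8% of all entries. Among them were HBG2 (fetal globin) with 218 and GATA1 (the erythroid master factor) with 15.3. Of 8 genes of other blood cells, only PTPRC, shared by most white blood cells, reached an FPKM of 1, with 14.5. A single value per gene over a whole culture does not separate fewer expressing cells from less RNA in each cell.

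The spans of the members differ greatly in size. On chromosome 8, MYC runs from 127735434 to 127742951 (7518 bp, plus strand), PVT1 from 127794526 to 128187101 (392576 bp, plus strand) and CCDC26 from 128634199 to 129683770 (1049572 bp, minus strand). No listed fragment lay in MYC or in the 51.575 kb between MYC and PVT1. The nearest other listed fragments lay 16733 kb upstream of MYC and 11219 kb beyond CCDC26, and the PVT1 fragment lay 1191 kb from the nearest CCDC26 fragment. No reads were therefore counted on MYC RNA in the fractions, and nothing is known here of its place in the cell.

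The PVT1 fragment ran from 128059291 to 128060685 (1395 bp), 264.765 kb into the gene and 316.34 kb past MYC, in an intron with 0 bases in any annotated exon. It had 4 reads in cytoplasmic RNA, 30 in nuclear RNA, 6 in polyA+ RNA and 29 in polyA− RNA. The nuclear count was 7.50 times the cytoplasmic count (interval 2.64 to 29.3, exact binomial test adjusted over 900 fragments, p = 8.47e-06). PolyA− reads outnumbered polyA+ reads by 4.83 (interval 1.97 to 14.2, exact binomial test, adjusted p = 2.12e-04). Its nuclear level of 21.5 reads per kb of fragment was higher than that of 39.6% of all listed fragments, and its nuclear to cytoplasmic ratio higher than that of 33.1%. When counts were scaled to the sum of each library over the listed fragments, the latter ratio was 0.563, so its direction rested on the scaling.

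CCDC26 held more fragments than any other gene, 2.44% of all that were listed and 29.7% of the 74 on chromosome 8. They were numbered from 1 to 22 in the direction of transcription. Their lengths ran from 360 to 13852 bp with a median of 2969 bp, against 2129.5 bp over all fragments, and they covered 101597 bp. All lay between 129251598 and 129566233, a window that makes up 30.0% of the gene and of which 32.3% was covered. Of 143 annotated isoforms, 112 start within 1 kb of each other around 129575116, which is 108.654 kb inside the annotated start of the gene. Fragment 1 began 8.883 kb downstream of this shared start and 0 fragments lay upstream of it, although 7 isoforms start there. The last 617.399 kb of the annotated gene also held none.

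The fragments were largely intronic. Annotated CCDC26 exons made up 4.03% of their bases (4095 bp), and 13 of 22 fragments had no base in them. With exons of any gene counted, 11 of 22 fragments had none, against 83.0% of all 900 fragments. Most of the exonic bases lay in fragment 19 (1368) and fragment 22 (1189). Fragments 11, 12 and 13 touched ENSG00000253926, an antisense lncRNA gene from 129415949 to 129445852 with 0.835 FPKM (0 to 2.02), of whose exons they held 79 bases. The strand setting of the counting is not given in the sources used here, so reads of CCDC26 and of this gene cannot be told apart there. Fragment 21 held 293 bases in exons of another gene and 0 in those of CCDC26, so its reads cannot be assigned to a single gene either. The CCDC26 primer pair of the study amplifies 129480169 to 129480370, of which 133 of 202 bp lay in fragment 7. In the study, CCDC26 was a negative control region in chromatin immunoprecipitation of EZH2 and of the histone mark H3K27me3. Over the whole of fragment 7 (2855 bp) were counted 2 reads in cytoplasmic RNA, 136 in nuclear RNA, 26 in polyA+ RNA and 130 in polyA− RNA.

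As deposited, counts on CCDC26 were higher in nuclear than in cytoplasmic RNA and higher in polyA− than in polyA+ RNA. Library totals were not known, so these counts do not give the part of CCDC26 RNA that lacked a poly(A) tail. Summed over the 22 fragments there were 64 reads in cytoplasmic RNA, 4872 in nuclear RNA, 1053 in polyA+ RNA and 4998 in polyA− RNA. CCDC26 thus took 0.807% (0.622 to 1.03) of the 7929 cytoplasmic reads on listed fragments and 4.61% (4.49 to 4.74) of the 105661 nuclear reads. Its share was 1.82% (1.71 to 1.93) of the 57985 polyA+ reads and 4.71% (4.59 to 4.84) of the 106051 polyA− reads. The gene held 4.11% of the listed bases, so its nuclear and polyA− shares lay above its share of bases and the other shares below it. These shares need no library total. Without the 10 other fragments with the most reads in each library they were 1.22%, 5.65%, 2.88% and 5.77% in the same order.

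**Figure D2:**
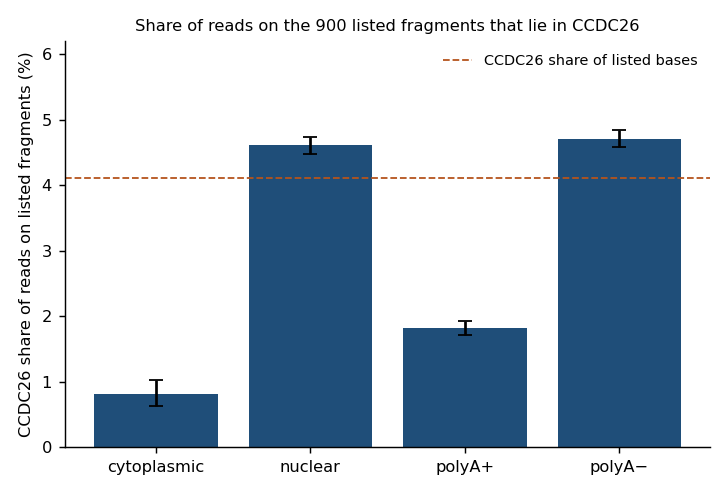
Bars give the percentage of all reads on the 900 listed fragments that fell in CCDC26, in each of the 4 fraction libraries, with exact 95% intervals for counting error, and the dashed line gives its share of listed bases (4.11%). The nuclear (4.61%) and polyA− (4.71%) bars rise above the line, and the cytoplasmic (0.807%) and polyA+ (1.82%) bars stay below it.

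The contrast between nuclear and cytoplasmic RNA was seen at each CCDC26 fragment when counts were compared as deposited. The summed nuclear count was 76.1 times the cytoplasmic count (59.5 to 99.0), against 12.8 (12.5 to 13.1) over the other 878 fragments. Scaling of the libraries multiplies both ratios alike, so this difference between CCDC26 and the others does not depend on it. All 22 fragments were called higher in nuclear RNA (exact binomial test, largest adjusted p = 2.74e-06), where 88% of the 900 fragments were called so. With both libraries scaled to equal sums over the listed fragments, 14 of 22 were called, against 14.0% of all fragments. Cytoplasmic counts ran from 0 to 11 with a median of 2, and 13 of 22 fragments had fewer than 3 reads, similar to the 51.9% among all fragments, so single ratios are imprecise.

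Fragment 8 had 2 cytoplasmic and 571 nuclear reads, a ratio of 285.5 with an interval from 78.7 to 2363. On fragment 1 the counts were 7 and 975, and their ratio of 139 (67.3 to 347) was higher than that of 99.8% of all listed fragments when counts below 3 were set to 3. At the other end of the ratios with cytoplasmic reads was fragment 17, with 3 cytoplasmic and 63 nuclear reads (ratio 21, interval 6.87 to 105). Fragment 20, which at 360 bp was the shortest, had 0 cytoplasmic and 20 nuclear reads. Its ratio therefore has only a lower bound (4.94). Fragments 14 and 16 also had 0 cytoplasmic reads, beside 42 and 30 nuclear reads, or at least 14.0-fold and 10.0-fold higher against 3 reads per library. Fragment 19, with 11 reads, had the most in cytoplasmic RNA, and its nuclear count of 326 was 29.6 times as high (16.3 to 60.0). Of the 22 fragments, 19 had a ratio above the median of all listed fragments.

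PolyA− reads outnumbered polyA+ reads on CCDC26 by 4.75 (4.44 to 5.08), against 1.77 (1.76 to 1.79) over the other 878 fragments. These are ratios of summed reads, in which fragments with many reads weigh most. The median of single fragment ratios was 6.86 in CCDC26 and 3.20 over all 900 fragments, with polyA+ counts below 3 set to 3. Among 49 genes hosting at least 5 fragments, CCDC26 ranked 24 by the summed ratio. The polyA− count was the higher at 22 of 22 fragments and was called higher at 20 of 22 (exact binomial test adjusted over 900 fragments), where 68% of all fragments were called so. In the opposite direction 0 of 22 were called, against 6.89% of all fragments. The 2 without a call were fragments 19 and 20. With libraries scaled so that the median ratio over all fragments was equal, 10 of 22 (45.5%) were called higher in polyA− RNA, against 19.3% of all fragments, and 3 of 22 (13.6%) higher in polyA+ RNA, against 28% of all fragments.

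**Figure D3:**
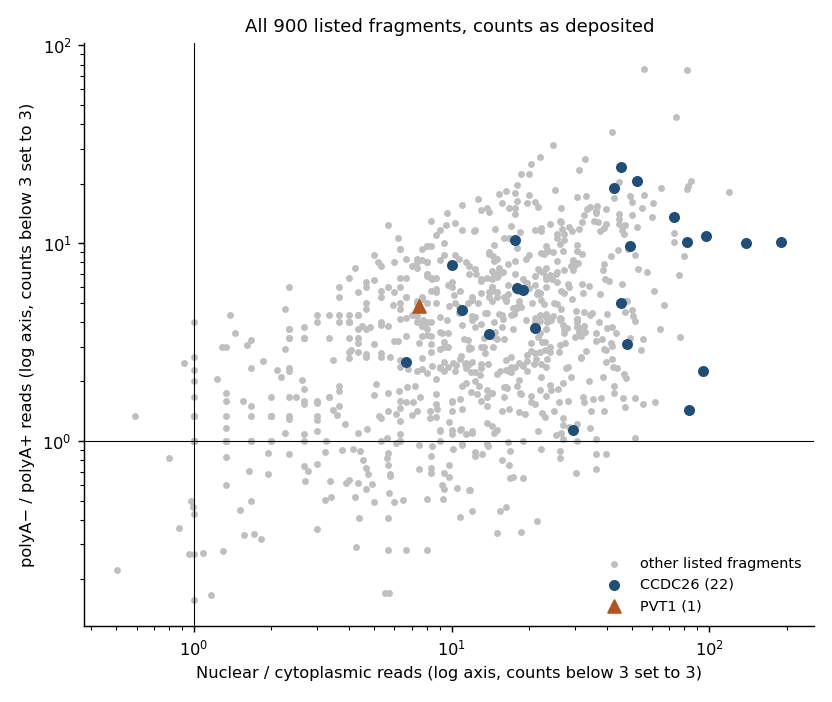
Each point is a listed fragment, with the ratio of nuclear to cytoplasmic reads (horizontal, log axis) and of polyA− to polyA+ reads (vertical, log axis), counts as deposited and counts below 3 set to 3. The 22 CCDC26 fragments (blue) lie toward the right, 19 above the median nuclear to cytoplasmic ratio of all 900, and spread over the vertical axis from 1.14 to 24.1, while the PVT1 fragment (triangle) lies at 7.50 and 4.83.

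The polyA− to polyA+ ratio varied 21.3-fold along CCDC26. It was highest at fragment 2 (129551047 to 129552804), where polyA+ RNA had 7 reads and polyA− RNA 169, a ratio of 24.1 (11.5 to 61.0). The same fragment had 182 nuclear and 4 cytoplasmic reads and the highest nuclear level, 103.5 reads per kb. Fragment 4 had 10 polyA+ and 206 polyA− reads (ratio 20.6, interval 11.0 to 43.6). The ratio was lowest at fragment 19 (129298804 to 129303783), where polyA+ RNA had 244 reads and polyA− RNA 277, a ratio of 1.14 (0.952 to 1.35) that did not pass the exact binomial test (adjusted p = 0.20). Fragment 20, which lies 1.249 kb past fragment 19, had 6 and 15 reads (ratio 2.50, interval 0.917 to 7.86), which did not pass either (exact binomial test, adjusted p = 0.101).

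PolyA+ reads were concentrated in a few fragments. Fragments 19, 12 and 18 had 244, 193 and 169 of them, together 57.5% of the polyA+ reads of the gene but 19.1% of its polyA− reads and 20.4% of its bases. These 3 were picked after their values were seen. Fragment 19 holds the most exonic sequence, whereas fragments 12 and 18 have 0 bases in annotated exons, and fragment 12 lies within the antisense gene. Without the 3, the ratio over the other 19 fragments was 9.04 (8.20 to 9.99). Exonic sequence did not always go with a low ratio, since fragment 22, with 1189 exonic bases, had 6 polyA+ and 114 polyA− reads (ratio 19, interval 8.46 to 52.9).

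Nuclear levels were higher near the shared start than farther along the gene. The nuclear level over the 22 fragments ran from 20.8 to 103.5 reads per kb with a median of 41.4, against a median of 27.7 over all fragments, and 18 of 22 lay above that median. Its Spearman correlation with the distance from the gene start was −0.51 over 22 fragments, and that of polyA− reads per kb was −0.69. PolyA+ reads per kb gave 0.30 and the polyA− to polyA+ ratio −0.63. The points share the same libraries, and these values are descriptions. Fragment length gave −0.17, GC content −0.24 and the share of G and A 0.37, so base composition also varied with position. Nuclear and polyA− levels went together over the fragments (Spearman correlation 0.90), but nuclear and polyA+ levels hardly did (0.088).

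The levels did not run evenly along the gene. Fragments 1 to 8, within 219.7 kb of the gene start, each had between 41.2 and 103.5 nuclear reads per kb, and fragment 14 (129405074 to 129407094) had the lowest level of all, 20.8 reads per kb from 42 reads. Past it, fragment 19 again reached 65.5 reads per kb. Over the 17 fragments inside the shorter span that the FPKM table gives CCDC26, from 129351691 to 129680239, the correlation of nuclear level with distance was −0.85. The 5 fragments beyond that span (18 to 22) had 41.0 nuclear reads per kb in sum, against 49.8 inside it, and 22 polyA+ reads per kb against 7.30. Accordingly their polyA− to polyA+ ratio was 1.66 (1.48 to 1.87), against 7.19 (6.60 to 7.86) for the 17 fragments inside, and these intervals, which any scaling multiplies alike, did not overlap. Of the 466 polyA+ reads beyond the span, 413 were those of fragments 18 and 19, and without these, a choice made after the values were seen, the ratio was 4.83 (3.58 to 6.62) from 53 polyA+ and 256 polyA− reads, with an interval that reached that of the 17. With only the 11 fragments that hold no exonic base, the correlation of nuclear level with distance was −0.25.

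**Figure D4:**
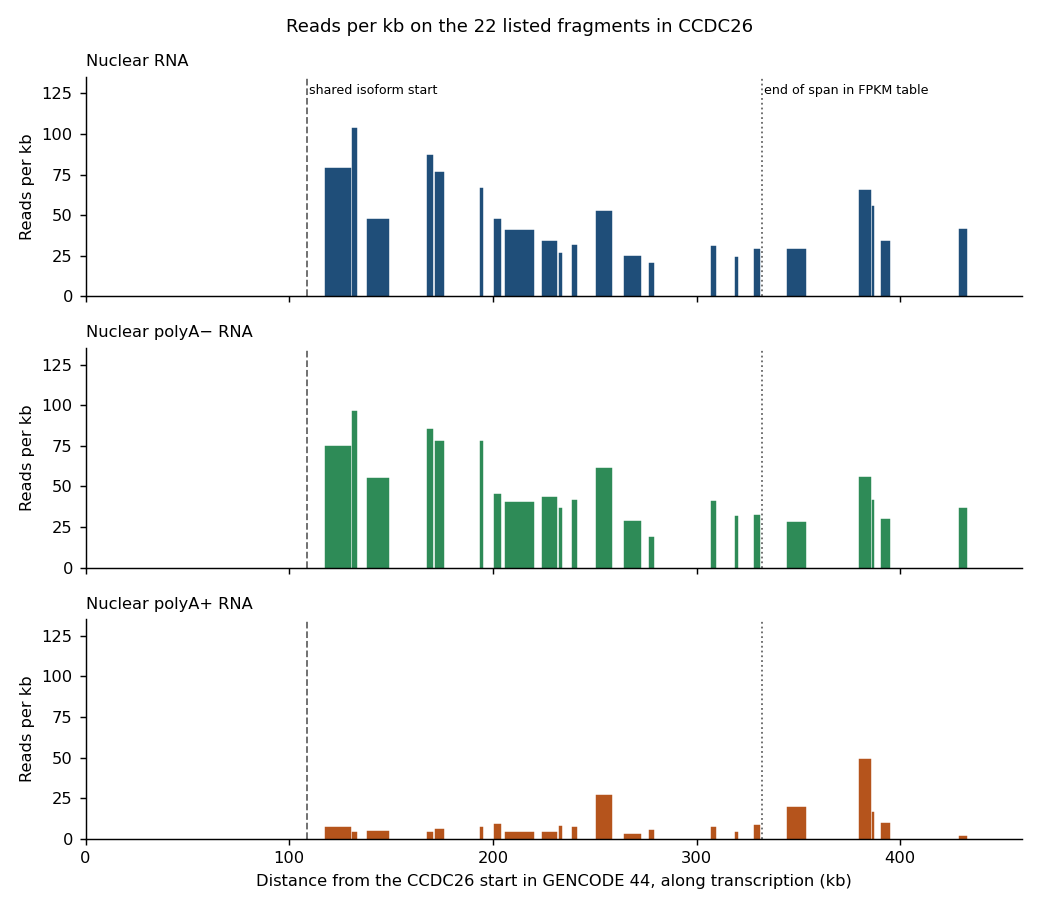
Bars give reads per kb at each of the 22 CCDC26 fragments (bar width is fragment length) against the distance from the annotated gene start in the direction of transcription, in nuclear, polyA− and polyA+ RNA, 1 library each. Nuclear and polyA− bars are tallest within 220 kb of the gene start, just past the shared isoform start (dashed line), whereas the tall polyA+ bars are those of fragments 12, 18 and 19, the last 2 beyond the end of the span in the FPKM table (dotted line).

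**Figure D5:**
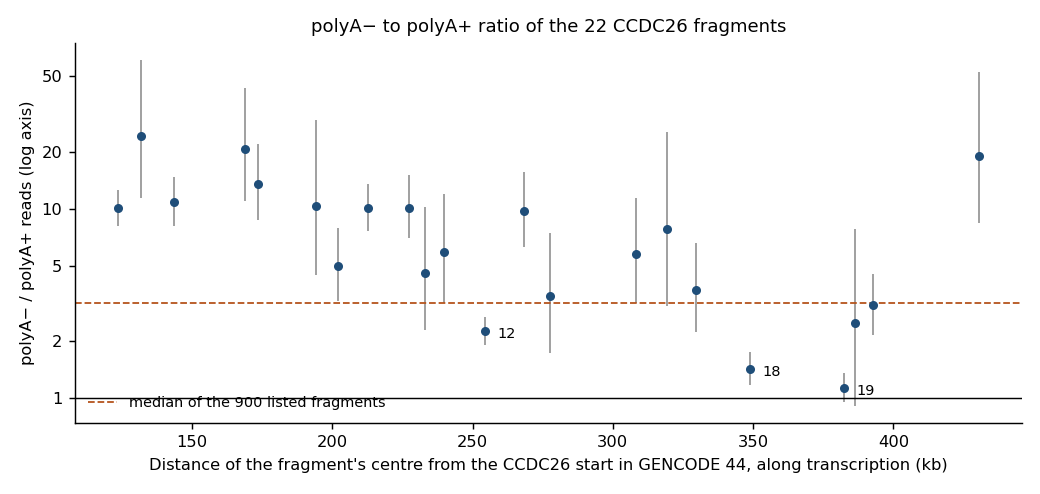
Points give the ratio of polyA− to polyA+ reads (log axis) at each CCDC26 fragment against the distance of its centre from the annotated gene start, with exact 95% intervals for counting error, and the dashed line is the median of all 900 fragments (3.20). The ratio runs from 24.1 at fragment 2 to 1.14 at fragment 19, with fragment 22 back at 19.

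A negative correlation of this kind was common among genes hosting at least 5 fragments, but many of these held far fewer than the 22 of CCDC26. Over few fragments a correlation is coarse. Among genes with 5 fragments, that of nuclear level with distance ran from −1 (STXBP5) to 0.60 (TBXAS1). Of 48 other genes hosting at least 5 fragments, 34 had a negative correlation of nuclear level with distance, and in 16 it was at or below that of CCDC26. For the polyA− to polyA+ ratio, 31 were negative and 10 were at or below CCDC26. These genes include 3 pairs that hold the same fragments, so they are not separate sets, and the pair LINC00534 and ENSG00000254180, on opposite strands, enters with both signs. Among the 49 genes, CCDC26 ranked 3 by the nuclear to cytoplasmic ratio, with 3 reads in place of fewer cytoplasmic reads, 13 by nuclear reads per kb and 24 by the polyA− to polyA+ ratio. CPED1, the gene with the next most fragments, held 18, with a nuclear to cytoplasmic ratio of 27.9 (23.0 to 34.2) and a polyA− to polyA+ ratio of 3.02 (2.81 to 3.25), both below CCDC26 with intervals that did not overlap. The lncRNA genes LINC00534 and ENSG00000254180 held the same 17 fragments, with 53.3 (33.1 to 91.9) for the former ratio, which overlapped CCDC26, and 2.19 (1.95 to 2.46) for the latter.

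The genes whose reads were split most like those of CCDC26 over the 4 fraction libraries were SMYD3, NCAM2, ENSG00000288714, PRKCB and KCNJ16, by the total variation distance between shares of summed reads. CCDC26 had 0.583% of its reads in cytoplasmic, 44.3% in nuclear, 9.58% in polyA+ and 45.5% in polyA− RNA. SMYD3, a lysine methyltransferase gene with 10 fragments, had 1.42%, 44.1%, 9.70% and 44.8% in the same order (distance 0.00955), and NCAM2, a cell adhesion gene with 6 fragments, had 1.62%, 44.3%, 8.32% and 45.8% (distance 0.0133). The summed polyA− to polyA+ ratio of SMYD3 was 4.62 (3.98 to 5.39), overlapping that of CCDC26, and its nuclear to cytoplasmic ratio was 30.9 (21.6 to 45.8), lower than that of CCDC26. The latter ratio was also lower for NCAM2 (27.4, interval 16.1 to 50.5) and KCNJ16 (28.3, interval 22.2 to 36.8). For ENSG00000288714 (42.95, interval 27.6 to 70.7) and PRKCB (51.2, interval 29.1 to 99.6) the interval overlapped that of CCDC26. Elsewhere on chromosome 8 the other 51 fragments had a median nuclear level of 9.19 reads per kb.

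The base composition of the CCDC26 fragments was like that of the other fragments. On the strand of GRCh38 that has the sequence of the RNA, G and A made up a median of 51.3% of the fragments (lowest 46.8%, highest 57.7%). The median was 48.5% in flanks of the same length, and 17 of 22 fragments lay above their flanks. Over the 700 listed fragments whose host genes lie on 1 strand, the medians were 52.8% and 50.2%, and 77.7% lay above their flanks. The median difference from the flanks was 2.47 percentage points in CCDC26 and 2.82 over the 700. GC content was 39.3% in the CCDC26 fragments and 38.8% in their flanks.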

How the data were processed

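Cytoplasmic, nuclear, nuclear polyA+ and nuclear polyA− RNA and RIP-seq input RNA of K562 cells were used, 1 library each. Per the study's methods, the authors trimmed reads (TrimGalore), aligned them to GRCh38 and GENCODE 26 (STAR), and dropped duplicates and alignments of mapping quality below 20. The deposited read counts per EZH2 fragment were made with featureCounts and not normalized, and their sums (7929 to 106051 reads per library) are not library totals. The deposited FPKM per gene and its bounds came from cuffdiff. Members and gene lists were chosen with earlier results of these data known.

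Fragments, read as 1-based with both ends included, were placed on GENCODE 44 (minimum overlap 50%). Counts were compared as deposited by a two-sided exact binomial test per fragment, with Benjamini-Hochberg adjustment over 900 fragments and a threshold of 0.05, tested on simulated data. Ratios against 0 reads used 3 reads. The FPKM table uses GENCODE 26 spans. Named were the members, fixed gene lists, the 5 genes most like CCDC26 and the 3 with the next most fragments, each hosting at least 5, and in CCDC26 the fragments at the extremes, those not called and that with the primer pair. Other fragments were chosen after their values were seen, as were the 17 and 5 fragments split by the FPKM span and fragments 1 to 8. Alternatives were other scalings, thresholds, spans, filters and a negative binomial test with dispersion 0.1. Scripts ran in Python 3.11.15 (scipy 1.17.1, numpy 2.4.6, matplotlib 3.10.9, pandas 2.3.3). Values of the other samples (RIP-seq, Nanopore, ChIP-seq, 4C-seq) were not analysed here.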

Additional observations from a re-analysis of the deposited data

How the results depend on the processing

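Library totals were not known, so several scales between libraries were tried. With libraries scaled to equal sums over the listed fragments, 14 CCDC26 fragments were called higher in nuclear RNA and 2 higher in polyA+ RNA (14.3% of all fragments were), the summed nuclear to cytoplasmic ratio was 5.71 and the polyA− to polyA+ ratio 2.60. With equal median ratios, 7 were called higher in nuclear, 10 in polyA− and 3 in polyA+ RNA (28% of all), and the ratios were 3.46 and 1.34. With 2 times the reads assumed for the larger library, 2 were called higher in polyA+ RNA (15.8% of all). With 10 times the reads assumed for the nuclear library, a setting added after the data were seen, 14 were called higher in nuclear RNA. The nuclear to cytoplasmic ratio turned below 1 at the PVT1 fragment with equal sums (0.563) and equal medians (0.341), and at fragment 17 with equal medians (0.955). Fragments 14, 16 and 20 had 0 cytoplasmic reads, so no scaling can turn their direction. Only with 3 reads in place of 0 was their value below 1. It was then 0.75 (fragment 16) and 0.50 (fragment 20) with equal sums. With equal medians it was 0.636 (fragment 14), 0.455 (fragment 16) and 0.303 (fragment 20). The polyA− to polyA+ ratio turned below 1 with equal sums at fragment 18 (0.783). With equal medians it did so at fragments 12 (0.640), 14 (0.976), 18 (0.405) and 21 (0.875). So did fragments 19 (0.621 and 0.321) and 20 (0.707 with equal medians), which were not called as deposited. The median of single fragment ratios was 45.4 for nuclear to cytoplasmic and 6.86 for polyA− to polyA+ RNA. The latter summed ratio was 4.24 without the fragment with the most reads, 7.19 in the FPKM span and 9.04 without the 3 fragments with the most polyA+ reads (added later). The nuclear trend was −0.25 without exonic fragments and −0.85 within the FPKM span (added later). Among entries above 0 in the FPKM table, 96.1% were lower than CCDC26 and 98.3% lower than MYC, and among lncRNA entries 99.8%, 99.9% and, for PVT1, 99.5% were lower. The cause of these changes was not tested. In the other 34 of 57 pairs of a main result and a setting, the direction held and the value moved less than counting error or the tolerance set for it. Over all fragments, calls higher in nuclear RNA fell from 792 to 126 with equal sums, 23 with equal medians, 481 at 5 times and 212 at 10 times the nuclear reads; calls higher in polyA− RNA fell from 612 to 407, 174, 365 at 2 times and 386 under the negative binomial test, where 16 CCDC26 fragments were called. Leaving out a replicate was not possible. No paired analysis was possible because each fraction has 1 library. Cytoplasmic counts gave the least precision, with under 3 reads at 13 of 22 CCDC26 fragments.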
